A study of Mus musculus with 31 samples.

Results

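A set of 10 genes near human Alzheimer's disease (AD) risk loci were followed in CD11b+ microglia and in cortex of mice that carry, or lack, a protective variant of a further AD risk gene, *Plcg2*. The 10 genes were *Bin1*, *Picalm*, *Sorl1*, *Rin3*, *Abca7*, *Cd33*, *Ms4a6d*, *Abi3*, *Ptk2b* and *Fermt2*, taken by name as AD risk genes, and each was found under its symbol among the 55401 genes of the count tables. In microglia *Cd33*, *Abi3* and *Ptk2b* were lower in male knock-in mice than in male wild-type (WT) mice when libraries were scaled to all genes. Of all genes, 16.4% passed this test, 5.26% as lower. No member passed in males when libraries were scaled to microglial genes, or when WT mouse 102 or WT mouse 94 was left out. The fits without a WT mouse held fewer mice, and *Cd33*, *Abi3* and *Ptk2b* were still lower in knock-in males there. Between knock-in and wild-type females carrying the APP/PS1 transgene no member passed, where 0% of all genes did. Between tissues, 7 of the 10 were more abundant in CD11b+ cells and 2 or 3 were more abundant in cortex, where 77.9% of all genes in A+/Pwt/wt and 76.6% in A+/Pki/ki mice also passed the test.

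AD risk loci carry many genes that act at the cell surface and along the endocytic route, and microglia, the resident phagocytes of the brain, express a large part of them. Endocytosis brings receptors and lipid particles inside the cell by clathrin-coated and other carriers, small GTPases of the Rab family direct the vesicles, and sorting receptors decide whether the cargo is recycled or degraded. Receptors such as the sialic acid-binding Siglecs restrain phagocyte activation, and phospholipase C gamma 2, the product of *Plcg2*, lies downstream of activating immune receptors.

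Polyadenylated RNA was measured in 31 libraries from mice of 13 months of age on the C57BL/6J background, of which 22 were CD11b+ cells collected from whole brain with magnetic beads and 9 were temporo-occipital cortex. Female mice either lacked (A-) or carried (A+) a transgene that expresses mutant human amyloid precursor protein and presenilin 1 under the mouse prion protein promoter, which drives broad expression, and had 2 wild-type *Plcg2* alleles (Pwt/wt) or 2 alleles with the P522R change made by genome editing (Pki/ki). CD11b+ groups were female A-/Pwt/wt (n = 7), A+/Pwt/wt (n = 4) and A+/Pki/ki (n = 4), and male WT (A-/Pwt/wt, n = 3) and KI (A-/Pki/ki, n = 4); cortex groups were female A-/Pwt/wt (n = 1), A+/Pwt/wt (n = 4) and A+/Pki/ki (n = 4). The library names of the CD11b+ cells carry a batch tag. Both male groups shared a tag, both A+ female groups shared another, and the A- females had a tag of their own. In females the effect of the transgene and that of the tag therefore cannot be told apart.

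The sum of counts per library ran from 16.2 to 43.1 M. The CD11b+ libraries held all 20 microglia markers, and none of these was at 0 in any group. Nor was any neuron, astrocyte or oligodendrocyte marker, so that this is no measure of purity. Values called microglial below are those of whole CD11b+ libraries. Plcg2 counts do not read the P522R change and so check no genotype, but *App*, which the transgene raises, was 1720 CPM (read counts scaled to the size of the library) in the A-/Pwt/wt cortex library and 2890 to 3480 CPM in the A+ cortex libraries. In CD11b+ cells *App* did not separate the genotypes, with 652 to 1090 CPM in A- and 561 to 1130 CPM in A+ females, whereas *Cst7*, a gene of plaque-associated microglia, was 10.5 to 32.7 CPM in A- and 581 to 974 CPM in A+ females. The CD11b+ library of A-/Pwt/wt mouse 223 stood apart, with 24.5% of its counts from mitochondrial genes, 7600 CPM summed over 22 neuron markers and 24800 CPM over the microglia markers, against 37600 to 44700 CPM in the other 6 libraries of its group. Its sum over 15 oligodendrocyte markers was 85300 CPM. In A-/Pwt/wt females the median sum was 38700 CPM for oligodendrocyte and 39400 CPM for microglia markers. The A+/Pwt/wt cortex libraries had 4000 to 6630 CPM over the oligodendrocyte markers. Mouse number 236 is given both for a CD11b+ A- library and for a cortex A+ library, and both labels were used as they stand. In these bulk samples, fewer cells of a type and less RNA per cell cannot be told apart.

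To show how unlike the start regions of these genes are, sequences are given for *Cd33*, whose microglial level was the most reduced of the 10 in KI males, for *Picalm*, a broadly expressed endocytic gene, and for *Fermt2*, the gene that ran opposite to the others. RefSeq promoter entries, of 250 bases before to 50 bases after the start site on GRCm38.p6, were matched for 6 of the 10 genes (*Picalm*, *Sorl1*, *Abca7*, *Cd33*, *Rin3* and *Fermt2*). Capitals mark 3 motifs searched on both strands, GAGGAA (the core read by PU.1, a myeloid transcription factor), GGGCGG (the GC box) and TATAAA (the TATA box), and no 2 of the marked matches overlap. The strand of each region is that of its gene, and all are written 5′ to 3′.
Cd33, chr7:43533122-43533421, minus strand: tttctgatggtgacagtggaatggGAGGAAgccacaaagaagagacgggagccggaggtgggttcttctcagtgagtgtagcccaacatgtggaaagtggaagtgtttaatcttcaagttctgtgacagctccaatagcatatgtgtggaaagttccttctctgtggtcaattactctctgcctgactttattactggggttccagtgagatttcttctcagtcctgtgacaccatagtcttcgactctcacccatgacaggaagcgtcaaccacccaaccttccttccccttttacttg
Picalm, chr7:90129963-90130262, plus strand: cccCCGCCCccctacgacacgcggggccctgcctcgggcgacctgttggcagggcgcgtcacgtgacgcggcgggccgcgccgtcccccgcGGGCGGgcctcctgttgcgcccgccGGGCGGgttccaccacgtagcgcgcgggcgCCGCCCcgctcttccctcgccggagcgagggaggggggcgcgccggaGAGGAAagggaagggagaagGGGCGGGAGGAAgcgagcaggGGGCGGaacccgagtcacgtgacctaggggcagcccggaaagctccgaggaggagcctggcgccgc
Fermt2, chr14:45530016-45530315, minus strand: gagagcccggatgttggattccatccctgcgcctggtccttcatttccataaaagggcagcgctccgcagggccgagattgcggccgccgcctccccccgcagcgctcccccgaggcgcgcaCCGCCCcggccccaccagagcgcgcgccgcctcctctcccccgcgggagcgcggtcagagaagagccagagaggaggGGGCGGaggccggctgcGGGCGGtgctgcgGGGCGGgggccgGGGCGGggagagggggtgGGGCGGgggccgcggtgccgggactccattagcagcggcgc
The *Cd33* region had a GC content of 47.7%, 1 GAGGAA match, 226 bases before the start site, and no GC box. The *Picalm* region had 78% GC, 2 GAGGAA matches and 6 GC boxes, and the *Fermt2* region had 76.7% GC, no GAGGAA match and 6 GC boxes. Of 32851 RefSeq promoter entries of the same length, 28.3% held GAGGAA, 35.7% held GGGCGG and 13.6% held TATAAA, so that these letters are common and a match describes the sequence without showing a bound site. The RefSeq start site of *Cd33* lies inside the longer Gencode gene.

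Adaptors that bend or coat membranes were the most abundant of the endocytic members. *Bin1* (chr18, 32377230 to 32435737, plus strand, GRCm38), a BAR-domain protein that curves membranes, was 508 CPM at the lowest, 716 at the median and 771 at the highest among the 7 A-/Pwt/wt females. It was 497, 592, 508 and 575 CPM in the A+/Pwt/wt libraries, and 555, 511, 684 and 709 in the A+/Pki/ki libraries. Male WT libraries had 804, 908 and 850 CPM and male KI libraries 887, 577, 620 and 675. All 22 microglial values lay above the cortical ones, which ran from 216 to 268 CPM, and 1 of the KI males lay among the WT males while the other 3 lay below.

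*Picalm* (chr7, 90130213 to 90213465, plus strand), which assembles clathrin coats, had 441, 536 and 571 CPM as the lowest, median and highest values in A-/Pwt/wt females. The A+/Pwt/wt libraries had 413, 577, 496 and 496 CPM and the A+/Pki/ki libraries 598, 431, 771 and 696. The female groups overlapped, with the widest spread among A+/Pki/ki mice. Male WT mice had 639, 655 and 652 CPM, all above the 578, 396, 476 and 563 CPM of KI males, and cortex had 120 to 138 CPM.

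*Sorl1* and *Rin3* act further along the endosomal route. *Sorl1* (chr9, 41964720 to 42124297, minus strand), a sorting receptor that carries the amyloid precursor protein away from endosomes, was 93.9 ± 22.3 CPM (SD, n = 7) in A-/Pwt/wt females, 91.9 ± 26.3 (n = 4) in A+/Pwt/wt and 110 ± 19.7 (n = 4) in A+/Pki/ki females, and 98.6 ± 8.61 (n = 3) and 92 ± 9.69 (n = 4) in male WT and KI microglia. Cortex had more of it in all 9 libraries, from 203 to 299 CPM, against 58.4 to 133 CPM over the CD11b+ libraries. *Rin3* (chr12, 102283048 to 102390855, plus strand), an exchange factor that activates Rab5, was close to absent from cortex by comparison, at 3.8 to 6.06 CPM. Its microglial means were 78.6 ± 11.4 CPM (n = 7), 69.5 ± 7.18 (n = 4) and 79.8 ± 12 (n = 4) in the A-/Pwt/wt, A+/Pwt/wt and A+/Pki/ki females, and 101 ± 9.07 (n = 3) and 79.1 ± 8.13 (n = 4) in the WT and KI males.

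*Abca7* (chr10, 79996494 to 80015572, plus strand), a transporter that moves lipids across the plasma membrane, had 66.3 ± 14.4, 66.8 ± 9.76 and 71 ± 9.8 CPM in the same order of female groups, and 100 ± 3.02 and 85.4 ± 13.2 CPM in male WT and KI microglia. The cortex values were 15.4 to 22 CPM. The 7 A-/Pwt/wt libraries fell into 4 at 52.7 to 58.9 CPM and 3 at 78.8 to 83.7 CPM, so that the spread inside this group was wider than the distance between the female group means.

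The surface receptors *Cd33* and *Ms4a6d* showed the sharpest contrast with cortex. *Cd33* (chr7, 43524216 to 43544428, minus strand), a Siglec that binds sialic acid, was 334, 462 and 734 CPM as the lowest, median and highest of the A-/Pwt/wt females. The A+/Pwt/wt libraries had 290, 656, 521 and 501 CPM and the A+/Pki/ki libraries 593, 364, 768 and 777. The female groups overlapped over most of their range. WT males had 799, 852 and 833 CPM and KI males 578, 545, 444 and 466, and the 2 male groups did not overlap. Cortex had 7.58 CPM in the A-/Pwt/wt library and 11.4 to 15.6 CPM in the A+ libraries. *Ms4a6d* (chr19, 11586604 to 11604849, minus strand), a membrane-spanning protein of the MS4A family, had microglial means between 42.5 ± 7.28 CPM (A+/Pwt/wt) and 55.6 ± 2.81 CPM (male WT), and 1.21 to 1.95 CPM in cortex.

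*Abi3*, *Ptk2b* and *Fermt2* belong to the actin, adhesion and kinase machinery. *Abi3* (chr11, 95830074 to 95842476, minus strand), a subunit of a complex that drives actin branching, had 42.4, 69.8 and 82.2 CPM as the lowest, median and highest of the A-/Pwt/wt females, and 112, 105 and 106 CPM in WT males against 88.8, 65.5, 69.6 and 75.6 in KI males. No male library of one genotype lay within the range of the other. Of the exonic length of *Abi3*, 75.8% overlaps exons of *Zfp652*, *Phospho1* and *Gngt2* on the opposite strand, and reads were counted without regard to strand, so that its level is uncertain. *Ptk2b* (chr14, 66153257 to 66281052, minus strand), the calcium-responsive kinase Pyk2, had 158, 165 and 156 CPM in WT males against 135, 117, 110 and 124 in KI males, again without overlap. Its highest microglial mean was that of A+/Pki/ki females, 169 ± 40 CPM (n = 4), and its cortical level was higher than in any CD11b+ library, at 425 to 542 CPM. *Fermt2* (chr14, 45458795 to 45530118, minus strand), which encodes the integrin activator kindlin-2, had 45.2, 35.6 and 41.2 CPM in WT males and 38.4, 91.2, 92.1 and 70.7 in KI males. Of the KI males 3 lay above all WT males and 1 among them.

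**Figure D1:**
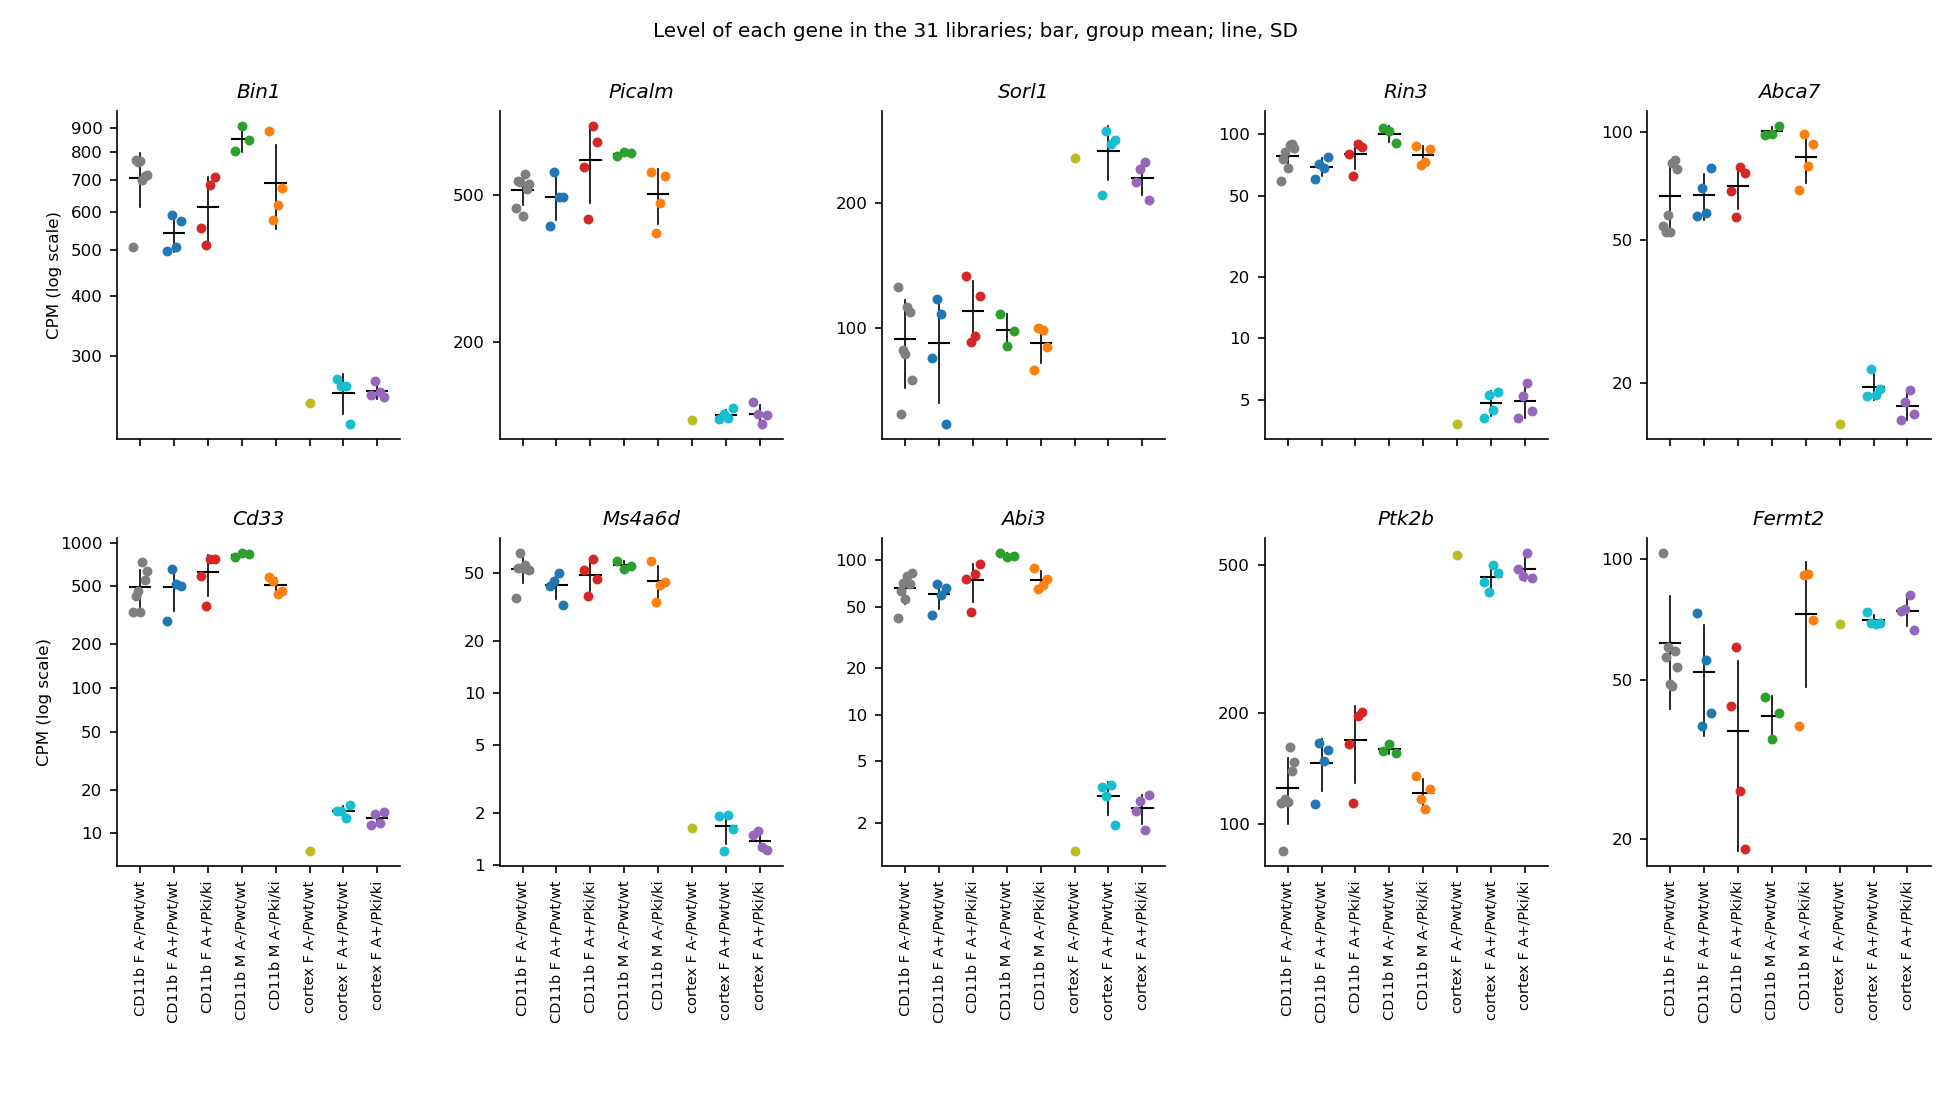
Level of the 10 genes in each of the 31 libraries, as CPM on a log axis with its own range in each panel, by tissue, sex (F, M) and genotype; points are libraries, bars are group means and lines are SD. *Cd33* is at 290 to 852 CPM in CD11b+ cells and 7.58 to 15.6 CPM in cortex, *Sorl1* and *Ptk2b* are higher in cortex, and *Fermt2* overlaps between the tissues.

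Ranked by group mean, the CD11b+ and the cortical groups were separate for 9 of the 10 genes and overlapped for *Fermt2*, where 46.3% of 20548 genes were separate. Within the CD11b+ groups most neighbours in the ranking overlapped. Male WT microglia ranked highest of the CD11b+ groups for 7 genes, all but *Sorl1*, *Ptk2b* and *Fermt2*, and were separate from the next group for *Bin1*, *Rin3*, *Cd33* and *Abi3*. Of all genes, 24.6% ranked highest in this group and 2.74% did so separately. The male WT libraries also had the lowest neuron marker sums of the male groups (410 to 559 CPM), a mitochondrial share of 3.97% to 5.02% and microglia marker sums of 49600 to 51100 CPM, and the part of these in the ranking was not tested. The males had another batch tag than the females, so that sex and tag cannot be told apart in this ranking.

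Per kb of exon, which allows genes to be set beside each other, *Bin1* was the most abundant of the 10 in A-/Pwt/wt female microglia, at 171 ± 22.4 CPM per kb, followed by *Cd33* at 64.2, *Picalm* at 32.9 and *Ms4a6d* at 30.4 CPM per kb. These were followed by *Ptk2b* (16.9), *Abi3* (16), *Fermt2* (11.9), *Rin3* (11.5), *Abca7* (9.81) and *Sorl1* (8.29 CPM per kb). *Bin1* was separate from *Cd33* and *Cd33* from *Picalm*, and every later neighbour overlapped. The place of *Abi3* is uncertain because of the exons on the opposite strand named above. The length joins all annotated exons of a gene, whichever transcripts were present, and the order depends on it. By CPM alone, *Picalm* (517) was far above *Ms4a6d* (52.7) in these libraries. In A+/Pwt/wt cortex the order was led by *Ptk2b*, at 62.7 CPM per kb, and *Bin1*, at 60.9, which overlapped, and then by *Sorl1* at 23.6 CPM per kb. *Rin3* was lowest there, at 0.708 CPM per kb.

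The members were next set beside the most abundant relative of each in the same cells. In A-/Pwt/wt female microglia, the level per kb of *Bin1* (171 CPM per kb) was above that of *Bin2* (98.4), a BAR protein of blood cells, and *Picalm* (32.9) was above its neuronal relative *Snap91* (4.06). *Ms4a6d* (30.4) was above *Ms4a6b* (9.6) and *Ptk2b* (16.9) above the focal adhesion kinase gene *Ptk2* (2.82 CPM per kb). The other 6 were below their relative, *Sorl1* (8.29) below the sorting receptor gene *Sort1* (35.5), *Rin3* (11.5) below *Rin2* (18.7), *Abca7* (9.81) below the cholesterol exporter gene *Abca1* (23.4), *Cd33* (64.2) below the microglial Siglec gene *Siglech* (237), *Abi3* (16) below *Abi1* (28.1), and *Fermt2* (11.9) below the blood-cell kindlin gene *Fermt3* (47.5 CPM per kb). The order of *Abi3* and *Abi1* is uncertain, since 75.8% of the exonic length of *Abi3* overlaps exons on the opposite strand. In A+/Pwt/wt cortex, *Snap91* (39.9 CPM per kb) was above *Picalm* (8.1), and *Fermt3* (1.51) was below *Fermt2* (13.6), the reverse of both orders in microglia.

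Across the 31 libraries, the gene nearest to each member was taken as the one with the smallest root mean square distance between centred log2 CPM values among 12140 genes. *Bin1* was nearest to *Mgat1* (0.10 on the log2 scale), *Picalm* to *Fcho2* (0.12), *Sorl1* to *Ocrl* (0.21), *Rin3* to *Ifngr1* (0.15) and *Abca7* to *Trim26* (0.17). *Cd33* was nearest to *Mlxipl* (0.17), *Ms4a6d* to *Lpcat2* (0.23), *Abi3* to *Was* (0.17), *Ptk2b* to *Tspyl3* (0.18) and *Fermt2* to *Tnfrsf19* (0.16). Among the members themselves, *Picalm* and *Abca7* were nearest to each other (0.27), as were *Sorl1* and *Ptk2b* (0.35) and *Cd33* and *Abi3* (0.36), while *Fermt2* was 0.69 from its nearest fellow member. These distances carry the large difference between tissues and the shared batch tags.

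The comparison of CD11b+ cells with cortex asked where in the brain each gene is expressed. In A+/Pwt/wt mice 7 members were higher and 2 lower in CD11b+ cells by edgeR's quasi-likelihood test with Benjamini-Hochberg adjustment, and these 9 did not overlap between tissues. Among all 18541 genes tested 77.9% passed the same test (37.7% higher and 40.2% lower) and 72.9% did not overlap, so that passing it does not set the members apart. *Cd33* was 5.18 ± 0.25 (log2 fold change ± SE) higher, a 36.4-fold difference (adjusted p = 1.55e-08), *Ms4a6d* 4.72 ± 0.19 (26.3-fold, 5.63e-09), *Abi3* 4.41 ± 0.22 (21.2-fold, 1.97e-08) and *Rin3* 3.91 ± 0.14 (15.1-fold, 3.26e-09). The more broadly expressed *Picalm* (2.03 ± 0.12), *Abca7* (1.84 ± 0.12) and *Bin1* (1.18 ± 0.12) were higher by less. *Sorl1* fell by 1.47 on the log2 scale (SE 0.21, adjusted p = 7.11e-05) and *Ptk2b* by 1.59 (SE 0.14, 1.23e-06). *Fermt2* had a log2 fold change of -0.37 (95% interval -0.76 to 0.03, adjusted p = 0.0793); without A+/Pwt/wt mouse 331 it was -0.57 (adjusted p = 0.00158), and over all fits that left out a library its adjusted p ran from 0.00158 to 0.235.

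In A+/Pki/ki mice all 10 passed, 7 higher and 3 lower in CD11b+ cells, against 76.6% of 18954 genes (36.8% higher and 39.8% lower), and none overlapped, against 72.8% of genes. *Cd33* was 5.65 ± 0.28 higher (50.4-fold), *Ms4a6d* 5.18 ± 0.19, *Abi3* 4.94 ± 0.27 and *Rin3* 4.05 ± 0.17 on the log2 scale. *Fermt2* fell by 0.95 (SE 0.33, edgeR adjusted p = 0.0289), a call that was lost without A+/Pki/ki CD11b+ mouse 394 (0.0704) or without cortex mouse 184 (0.0546), 203 (0.0543) or 216 (0.0624), each with a value between -0.96 and -0.79. Beside these values, all 20 microglia markers were higher in CD11b+ cells in both genotypes, with a median log2 fold change of 4.73 in A+/Pwt/wt and 4.95 in A+/Pki/ki mice. All 22 neuron markers were lower, with medians of -3.91 and -4.72. In A+/Pwt/wt mice all 16 endothelial and mural (median 2.93), 11 border macrophage (4.25) and 13 neutrophil and monocyte markers (6.7) were also higher. In A+/Pki/ki mice 13, 11 and 13 of these were. Of 15 oligodendrocyte markers 4 were higher and 7 lower in A+/Pwt/wt mice, and of 18 astrocyte markers 1 and 15. A higher value in CD11b+ cells therefore does not by itself place a gene in microglia. DESeq2 called the same numbers of members, 9 and 10, against 79.2% and 78.7% of genes. The CD11b+ cells came from whole brain and the cortical RNA from temporo-occipital cortex. Preparation differed as well, with enzymatic dissociation and an RNA kit for the cells and TRIzol on homogenate for cortex. Cell type, region and preparation therefore cannot be told apart here.

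**Figure D2:**
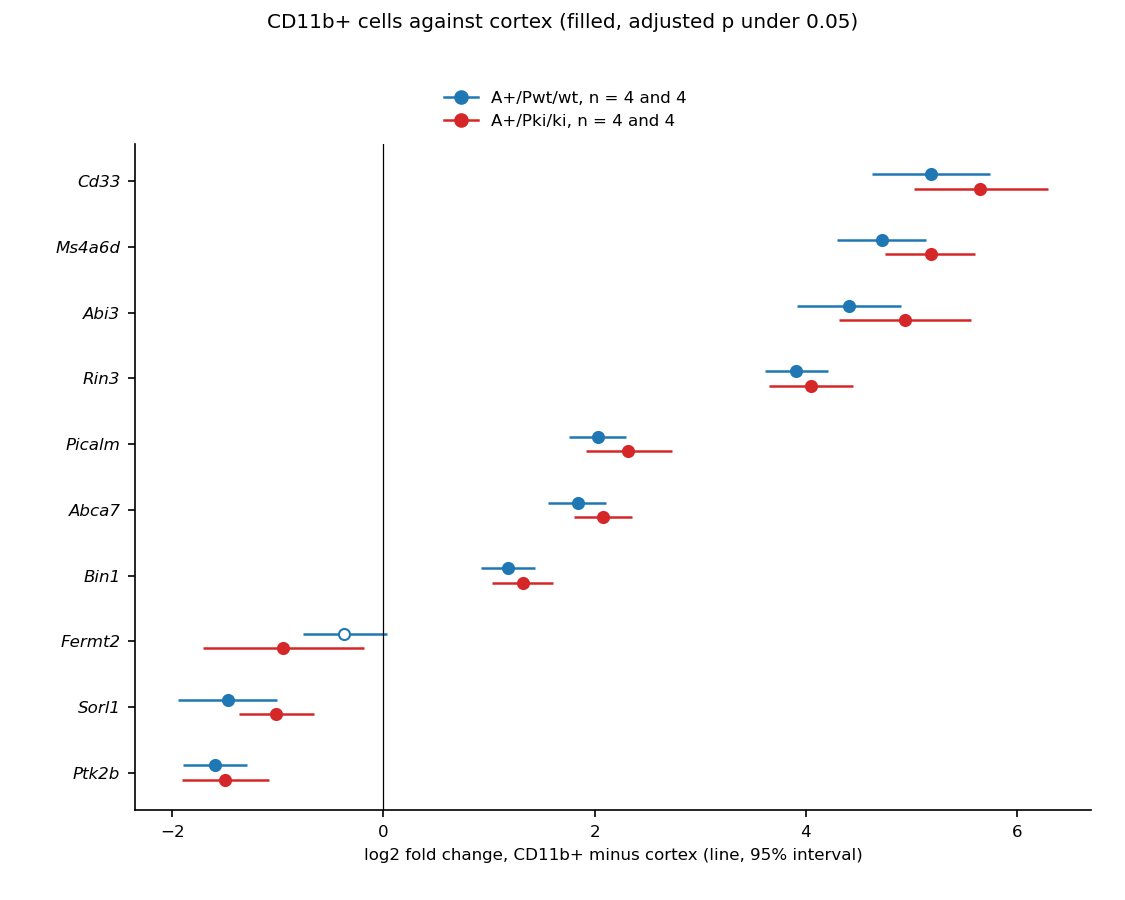
Log2 fold change of each gene between CD11b+ cells and cortex in A+/Pwt/wt and A+/Pki/ki females (4 libraries in each arm); points are edgeR estimates, filled where the adjusted p is under 0.05, and lines 95% intervals. The values run from 5.18 and 5.65 for *Cd33* to -1.59 and -1.50 for *Ptk2b*, and the interval of *Fermt2* crosses 0 in A+/Pwt/wt mice alone.

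Other genes of the same routes were read from lists chosen with results of these data known. Of 52 further AD risk genes, 32 were higher and 17 lower in CD11b+ cells of A+/Pwt/wt mice, and of 28 relatives of the members 16 were higher and 11 lower. The endocytic machinery was divided more evenly, with 14 of 34 genes higher and 15 lower. In A+/Pki/ki mice the corresponding counts were 34 and 14 risk genes, 16 and 11 relatives, and 13 and 14 endocytic genes. Of all genes, 37.7% were higher and 40.2% lower in A+/Pwt/wt mice, and 36.8% and 39.8% in A+/Pki/ki mice. With the rule for the genotype comparisons applied here after the values were seen, *Ms4a6c*, a relative of *Ms4a6d* (5.89 in A+/Pwt/wt), the inhibitory receptor gene *Lilrb4a* (5.70) and *Siglec1* (5.35) had the largest rises on the log2 scale, and the neuronal sorting receptor gene *Sorcs3* (-5.07), the dynamin gene *Dnm1* (-4.36) and the peptidase gene *Mme* (-4.31) the largest falls. In A+/Pki/ki mice these places were taken by *Lilrb4a* (6.92), *Ms4a6c* (6.22) and *Siglece* (5.83), and by *Sorcs3* (-5.71), *Dnm1* (-5.14) and *Sh3gl2* (-4.80).

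The effect of the knock-in without amyloid pathology was read in male microglia, from 3 WT and 4 KI mice. With libraries scaled to all genes, *Cd33*, *Abi3* and *Ptk2b* were lower in KI males, and 9 of 10 members had a value below 0. This direction depended on the genes used for scaling. Scaling to microglial genes left 4 members below 0 and moved the median of all genes to 0.38. DESeq2 size factors, the DESeq2 Wald test, limma, no low-count filter and filterByExpr each left 9 members below 0. Of 16373 genes tested 16.4% passed, 5.26% as lower and 11.1% as higher, and 3 of 10 members passed, all lower. In 5 members (*Picalm*, *Rin3*, *Cd33*, *Abi3* and *Ptk2b*) the WT and KI libraries did not overlap, against 30.8% of all genes. DESeq2 called 5 members and 22.7% of genes. The median log2 fold change was -0.33 over the members and 0.00 over all genes tested.

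*Cd33* fell by 0.71 on the log2 scale (SE 0.13, 95% interval -1.0 to -0.41, edgeR adjusted p = 0.00882), to 0.613 of the WT level. *Abi3* fell by 0.52 (SE 0.12, -0.78 to -0.26, adjusted p = 0.0177), and *Ptk2b* by 0.39 (SE 0.10, -0.61 to -0.17, adjusted p = 0.027). These falls were larger than the spread inside either group, as seen from the separate ranges above. Further genes of the endocytic route had values below 0 that did not pass, *Rin3* -0.35 (-0.60 to -0.10, adjusted p = 0.0626), *Picalm* -0.37 (-0.70 to -0.04, 0.116) and *Bin1* -0.31 (-0.68 to 0.06, 0.221). *Ms4a6d* (-0.31), *Abca7* (-0.24) and *Sorl1* (-0.10) had adjusted p-values of 0.227, 0.219 and 0.547. *Fermt2* was the exception in direction, at 0.84 (0.25 to 1.43, adjusted p = 0.057).

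Markers of other cell types moved with the male genotype. All 22 neuron markers were called higher in KI males, with a median log2 fold change of 2.06, and their summed level was 410 to 559 CPM in WT and 1130 to 2460 CPM in KI libraries. The 18 astrocyte markers were also all called higher (median 1.17), as were 10 of 15 oligodendrocyte markers (1.08), 4 of 10 oligodendrocyte precursor markers (1.08) and 5 of 16 endothelial and mural markers (0.78). The share of mitochondrial counts was 3.97% to 5.02% in WT and 7.4% to 12.8% in KI libraries. The 20 microglia markers were all below 0, with a median of -0.33, the same as that of the members, and 1 of them was called; their summed level was 49600 to 51100 CPM in WT and 31300 to 55600 CPM in KI libraries. Among border macrophage markers 1 of 11 was called, as lower (median -0.09), and none of 13 neutrophil and monocyte markers (0.39) nor of the 3 lymphocyte markers that could be tested, of 14 (-0.10), was called. The part of these differences in the members' values was not tested directly. A list of 20 microglial genes, which shares *Csf1r*, *Itgam*, *Laptm5*, *C1qa*, *C1qb* and *C1qc* with the markers, was also all below 0 (median -0.33). The male libraries were then scaled to these 20 genes in place of all genes.

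Under that scaling, none of the members was called, against 14.2% of genes, and their median was 0.02, while the median of all genes moved to 0.38. Of the genes called, 2324 of 2330 were then higher in KI males, against 1824 of 2685 with scaling to all genes. *Cd33* was -0.32 (edgeR adjusted p = 0.172), *Abi3* -0.16 (0.413) and *Ptk2b* -0.02 (0.945), and *Bin1* (0.04), *Rin3* (0.02), *Ms4a6d* (0.03), *Abca7* (0.18) and *Sorl1* (0.31) were above 0, none of them called under either scaling. *Picalm* was -0.01 and *Fermt2* 1.31 (adjusted p = 0.0541). The scalings differ by a similar shift for all 10 genes, so that their order says nothing of stability. Over the 6 alternatives that kept all libraries, the adjusted p ran from 1.09e-06 to 0.172 for *Cd33*, from 0.00176 to 0.413 for *Abi3*, from 0.00304 to 0.945 for *Ptk2b* and from 0.000556 to 0.0867 for *Fermt2*.

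**Figure D3:**
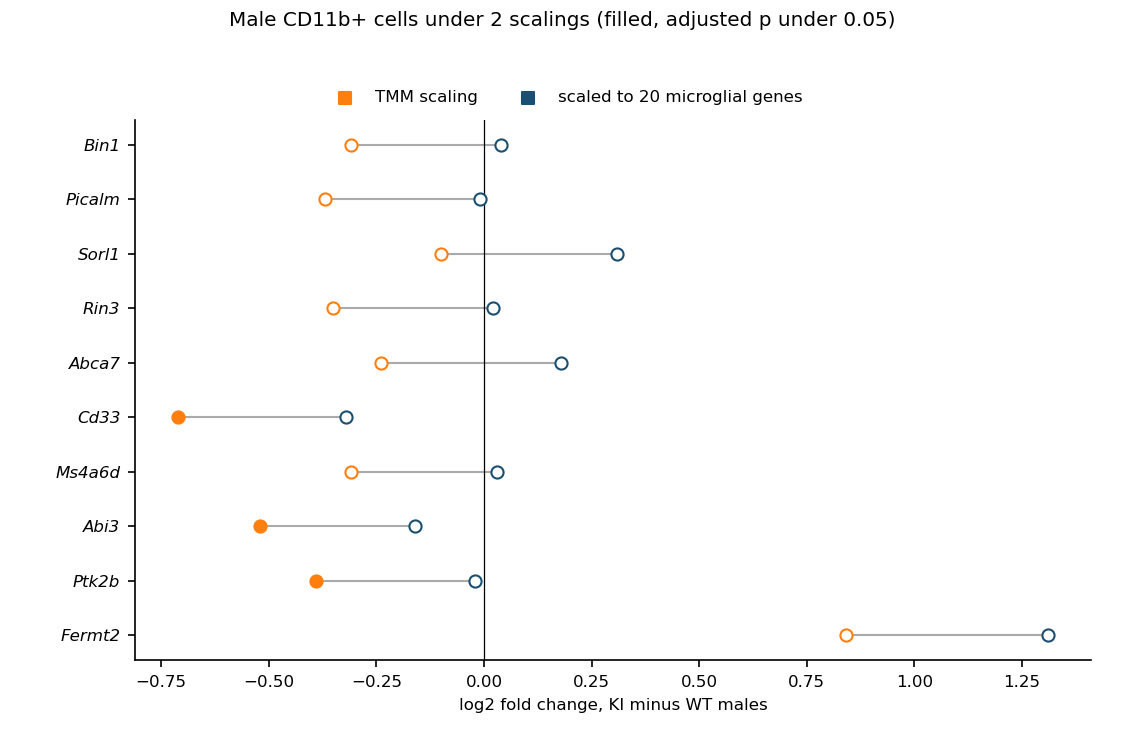
Log2 fold change of each gene between KI and WT males under TMM scaling, which uses all genes, and under scaling to 20 microglial genes; filled points have an adjusted p under 0.05. *Cd33* moves from -0.71 to -0.32, *Abi3* from -0.52 to -0.16 and *Ptk2b* from -0.39 to -0.02, and no point is filled under the second scaling.

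The male calls also changed when single libraries were left out. Such fits hold fewer mice, so that a lost call does not by itself mean a changed value. The count of members called was 0 without WT mouse 102 (5.52% of genes called) or WT mouse 94 (6.89%), 1 without WT mouse 101 (7.63%) or KI mouse 139 (8.37%), and 2 without KI mouse 136 (11%) or KI mouse 84 (15.8%), so that members and all genes moved together. Without KI mouse 104, whose microglia marker sum of 55600 CPM was the highest of the males, it was 8 against 33.5% of genes, with *Bin1* at -0.46 (edgeR adjusted p = 0.00936), *Picalm* at -0.44 (0.0273), *Rin3* at -0.40 (0.0164), *Ms4a6d* at -0.47 (0.0136) and *Fermt2* at 1.05 (0.00148) added. Over these 7 fits *Cd33* stayed between -0.78 and -0.64, with an adjusted p from 0.0017 to 0.0662, *Abi3* between -0.62 and -0.45 (0.0017 to 0.115) and *Ptk2b* between -0.45 and -0.34 (0.00349 to 0.184).

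In the listed genes around the members, KI males had 4 higher and 5 lower of 27 relatives (median -0.28), 4 higher and 4 lower of 52 further risk genes (-0.17), and 2 higher and none lower of 34 endocytic genes (-0.06). Of all genes tested, 11.1% were higher and 5.26% lower. The genes that rose most were endocytic or vesicle genes with strong neuronal expression, *Sh3gl2* (2.16, edgeR adjusted p = 0.00383), *Dnm1* (1.94, 0.00396) and *Amph* (1.57, 0.00374). Those that fell most were immune receptor genes, *Lilrb4a* (-0.88, edgeR adjusted p = 0.00855), *Cd22* (-0.73, 0.0105) and *Siglec1* (-0.66, 0.0418), of which *Cd22* and *Siglec1* are Siglecs like *Cd33*. *Siglec1* is also the border macrophage marker counted as lower above.

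In female APP/PS1 microglia the same comparison, A+/Pki/ki against A+/Pwt/wt, asked whether the knock-in altered these genes in the presence of amyloid pathology. No member was called by edgeR, nor was any of the 17039 genes (0%), and none of the members had separate ranges, against 2.25% of genes. DESeq2 called 7 genes (0.0411%), none of them a member, and 575 genes but no member had an unadjusted edgeR p under 0.05. The values of 9 members were above 0, with a median of 0.16. *Cd33* had a log2 fold change of 0.30 (95% interval -0.37 to 0.98), *Picalm* 0.29 (-0.14 to 0.72), *Abi3* 0.27 (-0.24 to 0.78), *Sorl1* 0.22 (-0.31 to 0.75) and *Ms4a6d* 0.17 (-0.24 to 0.57). *Ptk2b* had 0.16 (-0.27 to 0.60), *Rin3* 0.16 (-0.13 to 0.45), *Bin1* 0.14 (-0.17 to 0.45) and *Abca7* 0.05 (-0.26 to 0.35), and *Fermt2* was again opposite, at -0.52 (-1.39 to 0.35). The adjusted p was 0.915 for *Abca7* and 0.853 for the other 9.

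The intervals of *Bin1*, *Rin3* and *Abca7* stayed within 0.45 of 0 on the log2 scale, whereas that of *Cd33* reached from -0.37 to 0.98. Beside these values, all 20 microglia markers were above 0 (median 0.19) and all 22 neuron markers below 0 (median -0.82), and none of either list was called. The list with the largest median was that of neutrophil and monocyte markers, all 13 above 0 (median 2.06) and none called, and the mitochondrial share was 9% to 16.7% in A+/Pwt/wt and 3.45% to 19.4% in A+/Pki/ki libraries; their part in the values was not tested. The summed neuron marker level was 1550 to 2850 CPM in A+/Pwt/wt and 521 to 3660 CPM in A+/Pki/ki libraries. When scaled to microglial genes, 4 members were above 0 and 6 below, with a median of -0.04 (all genes -0.19). None of the relatives, further risk genes or endocytic genes was called, with medians of 0.07, 0.06 and 0.05.

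In cortex no member was called between A+/Pki/ki and A+/Pwt/wt females, nor was any of 18640 genes (0%) by edgeR, against 11 genes (0.059%) and no member by DESeq2. No member had separate ranges (1.85% of genes). *Sorl1*, at 224, 241, 251 and 203 CPM in A+/Pki/ki and 209, 299, 277 and 283 CPM in A+/Pwt/wt cortex, had the only interval that did not include 0, -0.46 to -0.01 around a log2 fold change of -0.23. Its unadjusted p was 0.0452 and its adjusted p 1, and the groups overlapped through the A+/Pwt/wt mouse with 209 CPM. *Bin1* (0.00, -0.17 to 0.17), *Picalm* (0.00, -0.14 to 0.14), *Ptk2b* (0.07, -0.10 to 0.23) and *Fermt2* (0.06, -0.08 to 0.21) were measured more closely than in microglia. The microglia-enriched *Cd33* (-0.17, -0.39 to 0.05), *Abi3* (-0.26, -0.74 to 0.23) and *Ms4a6d* (-0.29, -0.75 to 0.16) had wider intervals at their low cortical level, with *Abca7* at -0.19 (-0.38 to 0.00) and *Rin3* at 0.02. All adjusted p-values were 1, and none of the 25 relatives, 50 further risk genes or 34 endocytic genes tested was called, with medians of -0.06, 0.01 and 0.00.

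**Figure D4:**
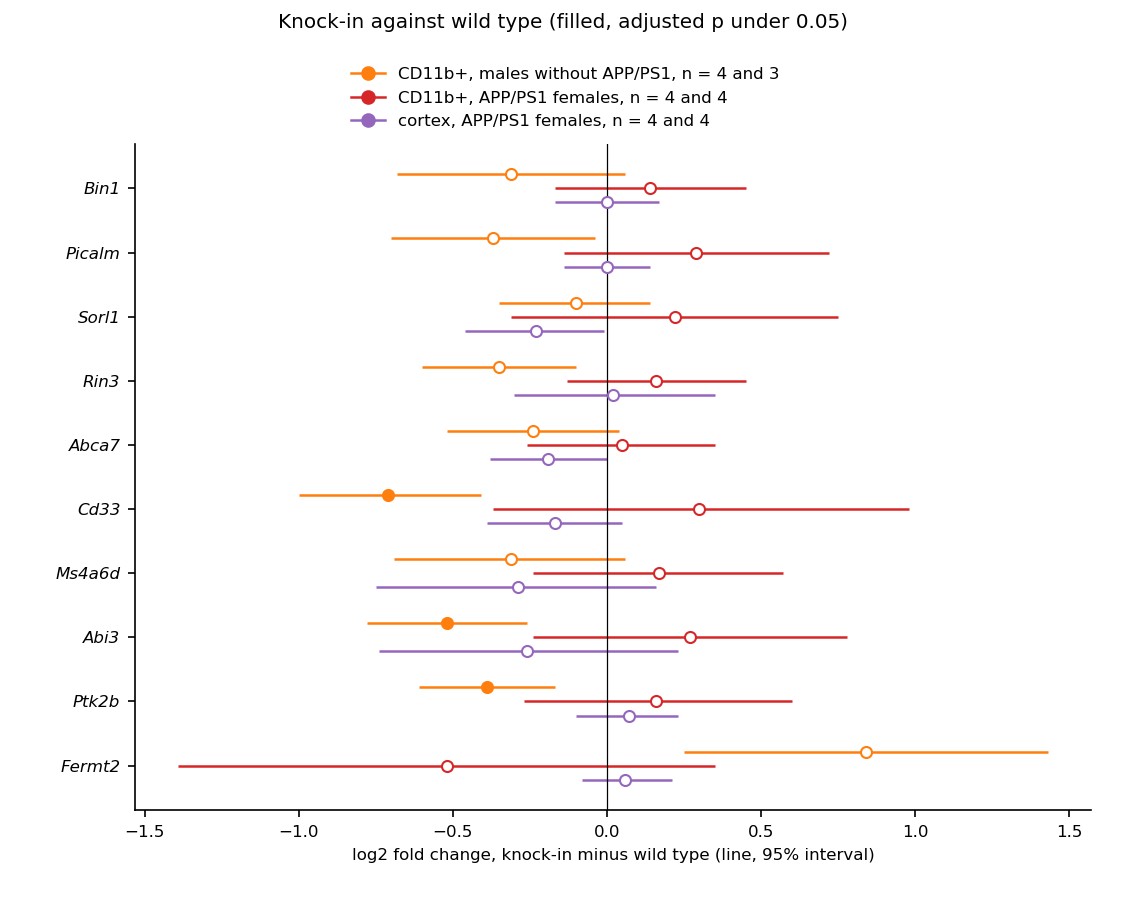
Log2 fold change of each gene for the knock-in in male CD11b+ cells (KI against WT), in female APP/PS1 CD11b+ cells and in female APP/PS1 cortex (A+/Pki/ki against A+/Pwt/wt); points are edgeR estimates, filled where the adjusted p is under 0.05, and lines 95% intervals. In males 9 genes lie below 0 and *Fermt2* above it, in APP/PS1 female CD11b+ cells 9 lie above 0 and *Fermt2* below it, and in cortex the values lie between -0.29 and 0.07.

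The difference between the male and the female APP/PS1 knock-in effect in microglia was tested in a model over both. No member was called, nor was any of 17619 genes (0%). Of the 10 members 6, and of the 17619 genes 4664, had an unadjusted edgeR p under 0.05. DESeq2 called 1185 genes (6.73%) and no member. *Cd33* differed by -0.98 (95% interval -1.73 to -0.23, edgeR adjusted p = 0.143), *Abi3* by -0.76 (-1.35 to -0.17, 0.143) and *Fermt2* by 1.38 (0.28 to 2.48, 0.146). The adjusted p-values of *Rin3* (-0.48), *Picalm* (-0.63) and *Ptk2b* (-0.53) were 0.148, 0.16 and 0.175. This outcome turned on A+/Pki/ki mouse 335, which had the highest summed level of neuron markers of its group (3660 CPM) and 2100 CPM summed over neutrophil and monocyte markers, against 63.3 to 581 CPM in the other 3 libraries of its group. Without it, 6 members were called, against 35.4% of 17495 genes (6199 in all). The 6 were *Abi3* (-1.02, edgeR adjusted p = 0.00405), *Cd33* (-1.25, 0.00726), *Ptk2b* (-0.76, 0.0081), *Rin3* (-0.66, 0.0087), *Picalm* (-0.85, 0.0107) and *Fermt2* (1.65, 0.0148). Under scaling to microglial genes 7 members were above 0 and 3 below, with a median of 0.08, and none was called. Sex, transgene and batch tag all differ between the 2 effects and cannot be told apart.

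The amyloid transgene was compared in female microglia, A+ against A-/Pwt/wt, where the batch tag also differs. For A+/Pwt/wt mice no member was called, against 1.29% of 17355 genes by edgeR, and no member had separate ranges (3.23% of genes). *Bin1* came nearest, at -0.38 (95% interval -0.72 to -0.04, unadjusted p = 0.0314, adjusted p = 0.403), and without A-/Pwt/wt mouse 223, the library that stood apart and had the lowest *Bin1* of its group, it was -0.46 and was called (adjusted p = 0.0432), where the adjusted p over all fits that left out a library ran from 0.0432 to 0.782. *Ms4a6d* was -0.32 (-0.69 to 0.06), *Fermt2* -0.23, *Rin3* -0.18, *Abi3* -0.14, *Picalm* -0.06, *Sorl1* -0.02, *Cd33* -0.02 (-0.60 to 0.57) and *Abca7* 0.01, and *Ptk2b* was 0.23 (-0.15 to 0.61). For A+/Pki/ki mice, against the same A- controls, no member was called either (1.64% of 17446 genes) and none had separate ranges (3.72%). *Ptk2b* was 0.44 (0.02 to 0.86, adjusted p = 0.31), *Fermt2* -0.71 (-1.36 to -0.06, 0.285), *Cd33* 0.33, *Picalm* 0.28, *Sorl1* 0.25, *Bin1* -0.19, *Abi3* 0.18, *Abca7* 0.11, *Ms4a6d* -0.10 and *Rin3* 0.03. DESeq2 called no member in either comparison (3.66% and 5.48% of genes), and neither did edgeR with scaling to microglial genes (0.956% and 0.682%). That scaling left 2 of the 10 above 0 in A+/Pki/ki mice, *Cd33* (0.04) and *Ptk2b* (0.13), against 7 with scaling to all genes, and turned *Picalm* to -0.04, *Sorl1* to -0.09, *Abi3* to -0.11, *Abca7* to -0.17 and *Rin3* to -0.25. In this comparison 21 of 22 neuron markers were below 0 (median -0.84) and 18 of 20 microglia markers above 0 (median 0.23), while in A+/Pwt/wt mice the medians of both lists were 0.00.

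Genes around the members did pass in these comparisons. Against A-/Pwt/wt, A+/Pwt/wt microglia had higher *Siglecf* (1.28, edgeR adjusted p = 0.0297), a Siglec, *Apoe* (1.14, 0.0111), the lipid carrier that is the strongest common AD risk gene, and *Ctsb* (1.02, 0.0348), a lysosomal protease gene, and lower *Ms4a4a* (-1.10, 0.0227), a relative of *Ms4a6d*. In A+/Pki/ki microglia *Siglecf* (1.34, 0.0124), *Lilrb4a* (2.17, 0.044) and *Adamts1* (1.50, 0.0413) were higher and *Ms4a4a* (-1.13, 0.0329) lower. In all, 1 relative was higher and 1 lower in each comparison, 2 and 4 further risk genes were higher, and none of the endocytic genes was called. Of all genes, 1.29% were called in A+/Pwt/wt and 1.64% in A+/Pki/ki mice. Markers of other myeloid cells moved as well. Of 11 border macrophage markers 9 were below 0 in A+/Pwt/wt (median -0.88, 3 called lower) and 10 in A+/Pki/ki mice (median -0.72, 1 called lower), and neutrophil and monocyte markers had medians of -0.90 and 1.26 with none called, and their part in these calls was not tested.

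Since neuronal RNA differed between male groups, the members were set against it inside the largest group, the 7 A-/Pwt/wt females, which share 1 genotype, sex and batch tag. The score was the mean log2 CPM over 22 neuron markers and ran from 3.80 to 7.17. Many genes moved with the score: 30.5% of 20435 genes had an unadjusted exact permutation p under 0.05 against the score and 11.2% did so with r below 0, where 5 members stood. *Abi3* was lower where the score was higher (Pearson's r = -0.98, exact permutation p = 0.000794, adjusted over all genes 0.0151; Spearman's rho = -0.93, adjusted p = 0.0488, by exact permutation), and so was *Cd33* (r = -0.94, exact permutation p = 0.00119, adjusted 0.0181; rho = -0.96, adjusted 0.033). Adjusted over all genes, *Rin3* passed by Pearson's r (r = -0.96, exact permutation p = 0.00119, adjusted 0.0181) and not by rank (rho = -0.89, adjusted 0.0678). With this adjustment, which was chosen after seeing the data, 3 members were called by Pearson's r, against 14.1% of genes, and 2 by rank, against 13.8%.

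The relations of *Abi3*, *Rin3* and *Cd33* held without mice 223 and 242, whose scores were farthest from the median, with r of -0.98, -0.90 and -0.99. *Picalm* (r = -0.83, adjusted exact permutation p = 0.105), *Abca7* (-0.77, 0.143), *Fermt2* (0.73, 0.201), *Ms4a6d* (-0.69, 0.25), *Bin1* (-0.59, 0.361), *Ptk2b* (-0.58, 0.349) and *Sorl1* (0.21, 0.782) did not pass. Without the 2 mice r was -0.54 for *Fermt2*, 0.75 for *Bin1* and 0.02 for *Ms4a6d*, so that the values of these 3 rested on them, and with 1 library left out r ran from -0.76 to 0.84 for *Bin1*. By rank *Ptk2b* stood level with *Rin3* (rho = -0.89, exact permutation p adjusted over all genes 0.0678). Adjusted over the members alone, the rank relations of *Ptk2b* and *Rin3* passed (exact permutation p adjusted to 0.0308 for each). With 1 library left out, r for *Ptk2b* ran from -0.85, without mouse 224, to -0.4.

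The slope, in log2 CPM for each unit of the score, was -0.36 for *Cd33*, -0.28 for *Abi3* and -0.19 for *Rin3*. The score of the male libraries was 3.11 to 3.58 in WT and 4.54 to 5.73 in KI mice, without overlap. Gene and score come from the same libraries and are both shares of the same total, so that a larger share of one kind of RNA lowers the others.

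**Figure D5:**
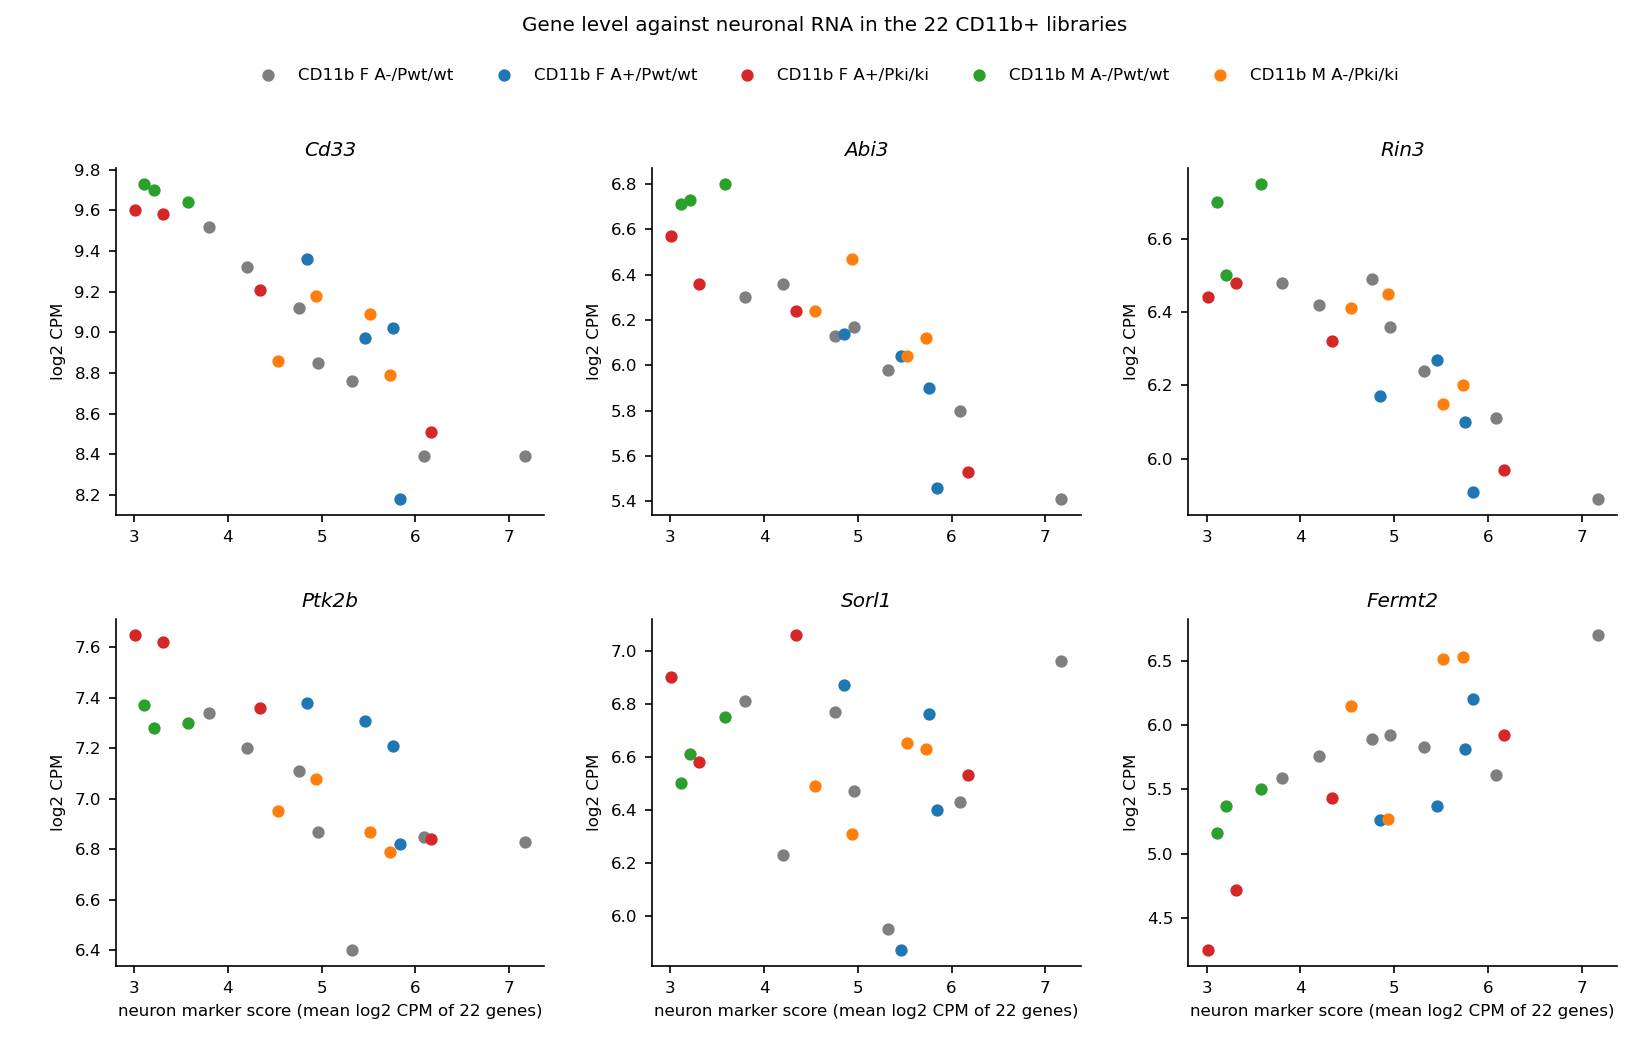
Log2 CPM of 6 genes against the neuron marker score (mean log2 CPM of 22 genes) in the 22 CD11b+ libraries, with a point for each library, coloured by group. Correlations were computed in the 7 A-/Pwt/wt females alone, where *Cd33*, *Abi3* and *Rin3* fall with the score (r = -0.94, -0.98 and -0.96) and *Sorl1* has r = 0.21; the WT males lie at scores of 3.11 to 3.58 and the KI males at 4.54 to 5.73.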

How the data were processed

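Female cortex, female CD11b+ cells and male CD11b+ cells were in 3 tables, and each column name was matched to the title of 1 sample. The authors prepared oligo(dT) libraries, trimmed paired-end reads with Trimmomatic 0.39 after FastQC 0.11.7, aligned them with STAR 2.7.9a to GRCm38 and assigned uniquely mapped primary alignments to Gencode genes with featureCounts 2.12.0 in R 4.2.2, without strand; the deposited values are raw counts. A second set deposited by the authors holds values after a variance-stabilizing transformation, on a log2 scale, and served limma alone. Total counts of 16.2 to 43.1 M per library set the precision of low genes.

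A gene was tested if 3 or more of the fitted libraries had 10 or more counts. Tests used edgeR 4.0.16 (quasi-likelihood test, TMM scaling) in R 4.3.3, on the libraries of the compared groups, with calls at a Benjamini-Hochberg adjusted p of 0.05 over all genes tested. SE is the log2 fold change divided by the root of the F statistic, and 95% intervals use the t distribution of the fit. CPM printed for a library were scaled by TMM over all 31 libraries (20548 genes), and log2 CPM for scores used a prior count of 2. Spearman and Pearson relations had exact permutation tests over all 5040 pairings, two-sided, with a smallest possible p of 0.000397, and the p-values printed were adjusted over all 20435 genes whose values varied.

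The members, the lists of relatives, further risk genes, endocytic genes and cell type markers, and the 20 microglial scaling genes were chosen with earlier results of these data known. Named besides the members were the most abundant relative of each member, the nearest gene of each, and the 3 largest rises and falls among called genes of the 3 gene lists with a mean of at least 5 CPM; marker lists were read as counts and sums. Alternatives were DESeq2 1.42.0 size factors, the DESeq2 Wald test, no filter, filterByExpr, limma 3.58.1, scaling to microglial genes, a fit of all groups of the table, and leaving out each library. The scripts were tested on simulated data. Exon lengths (all annotated exons of a gene joined) and coordinates came from Gencode M21 on GRCm38, where 55141 of 55401 gene IDs were found. Columns of another series and fold changes by the authors were absent from the tables used. Female knock-in mice without the transgene, proteins and human cells were not analysed here.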

Additional observations from a re-analysis of the deposited data

Results flagged for a closer look

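Of 60 groups of 4 to 10 libraries, 4 held a library far from the rest by Dixon's criterion, and chance alone gives about 1 in 20, or 3 of them. Among the 7 CD11b+ A-/Pwt/wt females, mouse 223 had 508 CPM of *Bin1*, with the nearest at 701, and 104 CPM of *Fermt2*, with the nearest at 60.5. This library also had 24.5% mitochondrial counts and a neuron marker sum of 7600 CPM, and the part of these in both values was not tested. In A+/Pwt/wt cortex, mouse 329 had 216 CPM of *Bin1*, with the nearest at 260. Mouse 236 of the same group had 73.7 CPM of *Fermt2*, with the nearest at 69.4, a gap that is small beside the level because the other 3 libraries were close together.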

How the results depend on the processing

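Of 49 recounts of the members called, with all libraries kept, 46 stayed close to the value given above (within 1.5 times). In KI against WT males the count moved from 3 to 5 with the DESeq2 Wald test, which added *Rin3* (-0.34, adjusted p = 0.0433) and *Fermt2* (0.85, 0.0152) and called 3719 genes (22.7%), and to 0 with scaling to microglial genes. Among the relations with the neuron marker score it moved from 3 to 5 with DESeq2 size factors, both adjusted over the 10 relations, and was 3 when adjusted over all genes, a setting chosen after seeing the data. Leaving out 1 library gave 0 to 8 members in males, 0 to 1 for A+/Pwt/wt against A-/Pwt/wt, 0 to 6 for the difference between male and female effects and 3 to 6 for the neuron marker score, with 6 without mouse 224. It gave 9 to 10 in both comparisons of tissues and 0 throughout in the other 3. Of 490 values of single members with all libraries kept, 480 stayed on their side of the threshold, 4 lost and 6 gained a call, and 22 changed sign, none of them while called. Of 830 with 1 library left out, 16 lost and 17 gained a call. Without the low-count filter in males, *Ptk2b* was -0.35 (edgeR adjusted p = 0.102) and *Fermt2* 0.87 (0.000556). Calls over all genes moved more: from 224 to 636 with DESeq2 for A+/Pwt/wt, and for A+/Pki/ki against A-/Pwt/wt from 286 to 956 with DESeq2, 510 with all female CD11b+ groups in the fit and 119 with microglial scaling, and in cortex from 0 to 40 without the filter. With 1 library left out they ran from 894 to 5439 in males (2685 with all), from 91 to 497 and from 57 to 1097 for A+/Pwt/wt and A+/Pki/ki against A-/Pwt/wt, and from 0 to 6199 for the difference between effects. The cause of these changes was not tested. limma was not run for the tissue and difference comparisons, nor microglial scaling for those with cortex. No paired analysis was possible because the groups compared share fewer than 2 mouse numbers. Low cortical levels limit *Ms4a6d*, *Abi3* and *Rin3*.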
